A study of Mus musculus with 35 samples.

Results

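Microglia and mural cells were compared directly by bulk RNA-seq of cells sorted from the E14.5 mouse brain (embryonic day). The comparison rests on 6 of the 35 samples of the series, and 3 brains gave 1 library of each population, Mi-340, Mi-343 and Mi-346 of microglia and Mu-340, Mu-343 and Mu-346 of mural cells, where the same number marks the same brain. According to the study's methods the brains were wild-type. The labels of these libraries carry no genotype, and no treatment is given for either group. Each brain was dissociated with Liberase and DNase I, the populations were collected in the same sort, and both were made into libraries with the SMART-Seq v4 kit for low input followed by Nextera XT. Mural cells were gated as PDGFRβ-high cells without PECAM1, CD102, CD45, CD41 or CD11b, and microglia as CD45-medium, CD11b+ cells without PECAM1 or PDGFRβ. The mural gate takes pericytes and vascular smooth muscle cells together, and the microglial gate holds no marker that parts microglia from other CD11b+ macrophages or monocytes of medium CD45.

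Microglia are the resident macrophages of the brain. They descend from progenitors of the yolk sac, depend on the CSF1 receptor, and clear dying cells and debris through phagocytic receptors, complement and a large lysosomal compartment. Mural cells wrap the vessel wall, where pericytes share a basement membrane with the endothelium and are held there by PDGF-B signalling through PDGFRβ, while smooth muscle cells carry the contractile apparatus of arteries. The comparison asks which genes, and which ends of known signalling pairs, were higher in each.

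All values below are normalized counts, that is whole reads divided by 1 factor per library, and groups of 3 values are given in the order of those library names. The microglial libraries held 24464777 to 29619163 reads on genes and the mural libraries 25099023 to 63107352. Genes with a read numbered 20499, 21888 and 23440 in microglia and 21768, 19922 and 21561 in mural cells, so that Mi-346 held the most. Mitochondrial genes took 15.8% ± 4.71 (SD, n = 3) of the reads in microglia and 10.9% ± 3.02 in mural cells (exact two-sided permutation p = 0.2, where 0.1 is the smallest p that 3 libraries against 3 can give). A log2 difference is microglia minus mural cells on log2(normalized count + 1), so that a positive value means higher in microglia. A gene was called at a Benjamini-Hochberg adjusted p under 0.05 in limma across all genes tested.

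The defining genes of both populations followed the labels in 6 of 6 libraries. *Cx3cr1*, the fractalkine receptor of microglia, was at 46151, 46458 and 48423 in microglia and at 6.99, 0 and 5.63 in mural cells. *Rgs5*, a G-protein regulator that marks pericytes, was at 548316, 557899 and 579164 in mural cells and at 349.5, 162 and 301 in microglia. Neither gene came near to overlapping between the populations. The genes of the sort antibodies followed the gates and are no finding here. *Pdgfrb* was at 12456, 10874 and 15771 in mural cells and 23.8, 34.4 and 51.6 in microglia, *Ptprc* (CD45) at 12081, 16626 and 24568 in microglia with 1 read in the 3 mural libraries, and *Itgam* (CD11b) at 3741, 3614 and 6924 with 2 reads. Summed over 12 microglial markers, microglia held 382660, 386001 and 409709 and mural cells 1193, 1343 and 1244. Summed over 12 mural markers, mural cells held 713109, 721685 and 771239 and microglia 465, 420 and 606, to which *Rgs5* gave 349.5, 162 and 301. In the plot of these genes by library the populations stay apart for each of them.

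**Figure D1:**
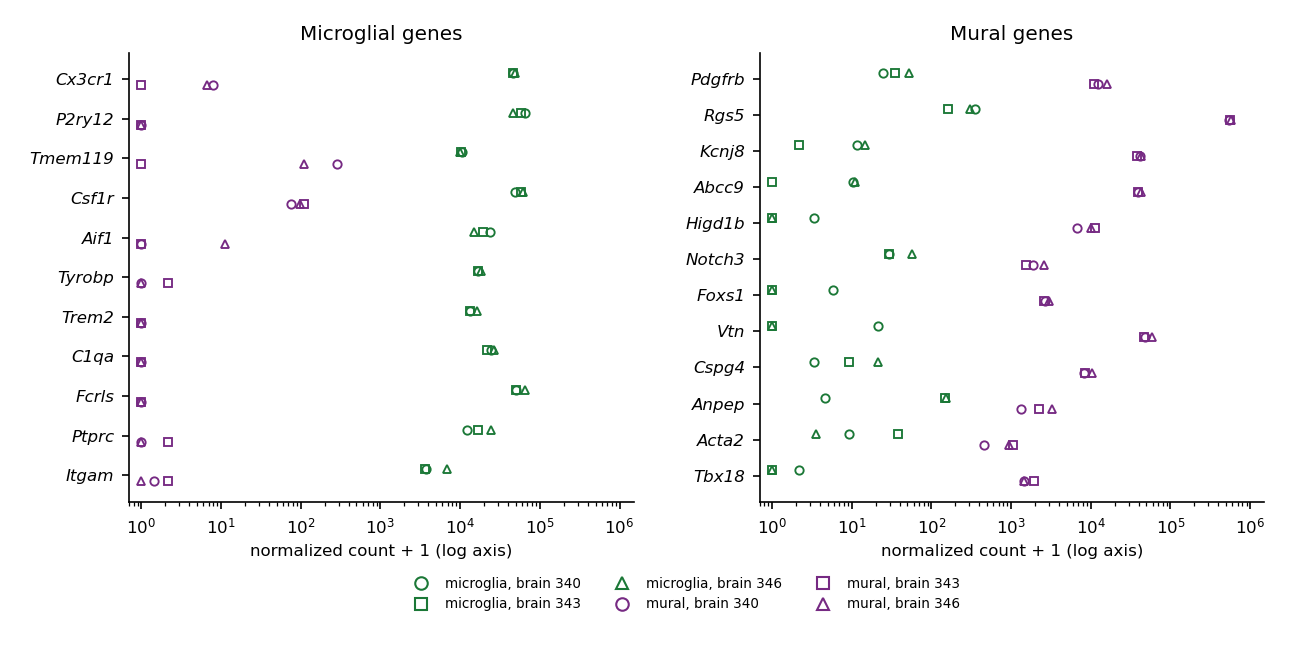
Normalized count + 1 on a log axis of 11 microglial genes (left) and 12 mural genes (right) in each of the 6 libraries, with microglia in green, mural cells in purple and the symbol giving the brain. For each gene the 3 libraries of the higher population lie together, and for *Rgs5* the mural libraries sit between 548316 and 579164.

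Of 18886 genes tested, 3736 (19.8%) were higher in microglia and 3260 (17.3%) in mural cells. A difference of over 10-fold, counted here and below on the fitted difference as a log2 over 3.32 in size, was called for 1725 genes (9.13%) in microglia and for 1459 (7.73%) in mural cells, and with a pseudocount of 10 for 1024 and 952. The median log2 difference over all genes tested was 0.08, so that calls in both directions lay around a centre near 0. In bulk RNA a higher value cannot tell more RNA per cell from more cells with that RNA. The libraries of a group come from 3 brains, so the p-values measure the spread between brains.

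**Figure D2:**
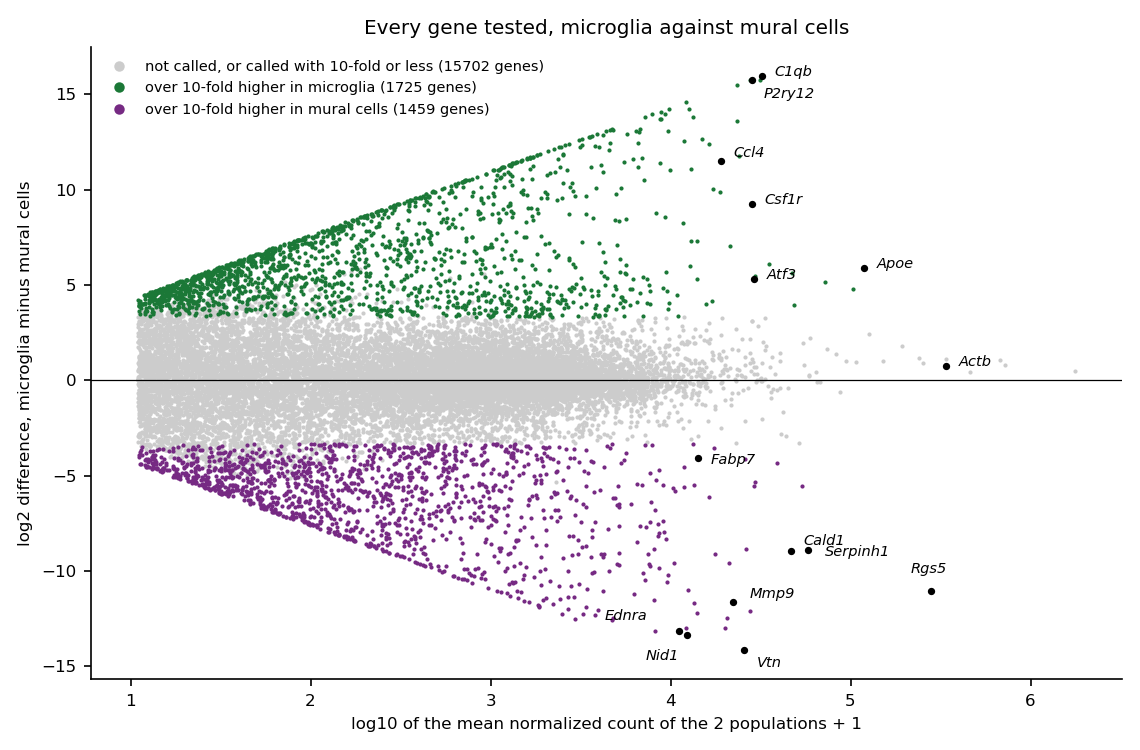
Each point is 1 of the 18886 genes tested, with the log10 of the mean level over both populations on the horizontal axis and the log2 difference, microglia minus mural cells, on the vertical axis. Green and purple points are the 1725 and 1459 genes called with over 10-fold; the slanting outer edges are genes at or near 0 in one population, whose fitted difference depends on the pseudocount and is no bound.

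Among the genes that separated microglia most from mural cells were the chains of C1q, a purine receptor and a lysosomal protease. *C1qb*, a chain of the complement initiator C1q, was at 61822, 61671 and 68854 in microglia and had no read in the mural libraries, which puts it at least 25468-fold higher (adjusted p = 9.6e-07). Such bounds set the mean of the higher population against a floor of 3 reads per library, which is 2.52 normalized counts in mural cells and 3.63 in microglia. The other chains, *C1qc* at 47104, 47442 and 45316 and *C1qa* at 24762, 21778 and 26814, were likewise without a mural read, at least 18518-fold and 9712-fold higher. The 3 genes lie side by side on the minus strand of chromosome 4 of GRCm38, *C1qb* at chr4:136880129-136886187, *C1qc* at chr4:136889804-136893065 and *C1qa* at chr4:136895917-136898803. *P2ry12*, the ADP receptor that steers microglial processes, was at 64898, 57349 and 46750.0 against 0 in the 3 mural libraries, and *Fcrls*, an Fc receptor-like gene of mouse microglia, at 50478, 49843 and 65668 against 0. *Ctss*, the lysosomal protease cathepsin S, was at 56095, 58070.0 and 74613 with 1 mural read, and the Fc receptor *Fcgr3* at 23775, 23365 and 28403, also with 1 mural read. *Bin2*, a membrane-shaping protein of blood cells, at 23802, 21448 and 13697 and *Ly86*, a partner of a Toll-like receptor homologue, at 15014, 15995 and 21819 were at 0 in mural cells, and *Ighm*, the constant region of the IgM heavy chain, was at 23642, 19185 and 13122 with 1 mural read. These 10 had the largest fitted difference among 1159 genes called with over 10-fold, without overlap and with a microglial mean of at least 100. Over all genes tested, the 3 microglial libraries lay above the 3 mural ones for 26.8%.

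On the mural side the leading genes included those of a secreted adhesion protein, basement membrane and the machinery of vessel tone. *Vtn*, the adhesive plasma and matrix protein vitronectin (chr11:78499091-78502324, plus strand), was at 48345, 46326 and 58720.0 in mural cells and 20.2, 0 and 0 in microglia (log2 difference -14.17 ± 1.13 SE, adjusted p = 0.00011). *Nid1*, the basement membrane linker nidogen, was at 25744, 22148 and 26369 against 4.75, 0 and 1.26. *Gucy1a1*, a subunit of the nitric oxide receptor guanylate cyclase, was at 15929, 16588 and 16731 against 4.75, 0 and 0. Over the 3 libraries these were 5 microglial reads of *Nid1* and 4 of *Gucy1a1*. *Ednra*, the endothelin A receptor of vessel walls, was at 23093, 20036 and 23905 against 5.94, 1.19 and 0. *Abcc9* and *Kcnj8* encode the sulphonylurea receptor and the pore of the vascular KATP channel. Both genes sit on the minus strand of chromosome 6, 16.2 kb apart, *Kcnj8* at chr6:142564837-142571614 and *Abcc9* at chr6:142587862-142702315. *Abcc9* was at 39438, 38931 and 42589 and *Kcnj8* at 41847, 38245 and 43207 in mural cells, with 0 to 13.8 in microglia. The collagen-binding integrin chain *Itga1* (25904, 21452 and 26020.0), *Higd1b*, a nuclear gene of a mitochondrial protein (6744, 11415 and 10144), the adaptor *Afap1l2* (5212, 5595 and 6964) and the carbonic anhydrase *Car4* (9742, 8966 and 10161) completed the 10 largest of 1110 genes chosen by the same rule. *Afap1l2* had no microglial read and was at least 1630.0-fold higher. Over all genes tested, the 3 mural libraries lay above the 3 microglial ones for 23.7%.

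The promoters of both groups were read for 3 short motifs, each on both strands, in the window from 250 bases before to 50 after each RefSeq start site on GRCm38.p6. These were GAGGAAG, the core bound by the myeloid factor PU.1, TGTGGT, the core bound by RUNX factors, and the CArG box, bound by SRF in genes of the contractile apparatus. A window was in the RefSeq table for 1069 of the 1725 genes over 10-fold higher in microglia (1385 windows) and for 917 of the 1459 in mural cells (1228 windows). The PU.1 core was in 21.6% of the microglial windows and in 13.4% of the mural ones, against 13.9% of the 15382 windows of all genes tested and 13.6% of all 32851 windows in the table. The RUNX core was in 20.7% of the microglial and 12.7% of the mural windows, against 13% for all genes tested and 16.8% in the table. The CArG box was in 1.37% and 1.79%, against 1.34% and 1.63%. A match is a description of letters and does not show binding. The windows of genes with neighbouring or shared start sites overlap, and no test was made.

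The promoters of 6 genes are printed 5′ to 3′ in the direction of the gene, in lower case with the motifs in capitals, because they belong to genes described here and show where the letters fall. A PU.1 core read on the other strand appears as CTTCCTC, and a RUNX core as ACCACA. *C1qc* holds a PU.1 core that begins 194 bases before the start site and a RUNX core 132 bases before it, *Ctss* a PU.1 core across the start site, *Fcrls* 1 PU.1 core and 2 RUNX cores, and *Trem2* a PU.1 core 41 bases before the start. Of the mural genes, *Myl9*, a myosin light chain of smooth muscle, holds a CArG box 161 bases before the start, and *Nid1* holds a PU.1 core at 110 bases, so the letters are not limited to microglial genes.
C1qc, chr4:136892865-136893164, minus strand: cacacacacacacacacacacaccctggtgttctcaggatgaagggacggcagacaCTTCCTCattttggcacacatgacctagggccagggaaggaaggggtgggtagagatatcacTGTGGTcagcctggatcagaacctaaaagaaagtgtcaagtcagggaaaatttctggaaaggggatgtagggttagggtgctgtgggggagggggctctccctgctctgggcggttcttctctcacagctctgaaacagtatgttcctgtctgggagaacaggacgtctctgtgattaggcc
Ctss, chr3:95526536-95526835, plus strand: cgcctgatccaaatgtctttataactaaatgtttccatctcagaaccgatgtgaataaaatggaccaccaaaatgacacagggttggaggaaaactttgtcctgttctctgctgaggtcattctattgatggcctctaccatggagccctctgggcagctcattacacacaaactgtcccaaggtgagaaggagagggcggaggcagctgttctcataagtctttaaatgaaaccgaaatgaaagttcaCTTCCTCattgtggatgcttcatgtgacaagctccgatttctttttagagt
Fcrls, chr3:87263475-87263774, minus strand: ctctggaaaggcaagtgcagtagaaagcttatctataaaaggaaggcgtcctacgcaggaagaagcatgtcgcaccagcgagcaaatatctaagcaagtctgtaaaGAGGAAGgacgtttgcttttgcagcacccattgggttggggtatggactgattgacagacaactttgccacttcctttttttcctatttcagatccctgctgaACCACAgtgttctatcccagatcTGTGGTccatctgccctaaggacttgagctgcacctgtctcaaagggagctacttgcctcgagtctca
Trem2, chr17:48346151-48346450, plus strand: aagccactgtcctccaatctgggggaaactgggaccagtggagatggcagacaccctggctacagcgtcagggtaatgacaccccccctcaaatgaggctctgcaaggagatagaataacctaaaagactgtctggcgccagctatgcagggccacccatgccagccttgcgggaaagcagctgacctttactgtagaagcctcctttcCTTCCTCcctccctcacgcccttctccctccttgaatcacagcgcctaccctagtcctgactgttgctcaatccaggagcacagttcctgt
Myl9, chr2:156775214-156775513, plus strand: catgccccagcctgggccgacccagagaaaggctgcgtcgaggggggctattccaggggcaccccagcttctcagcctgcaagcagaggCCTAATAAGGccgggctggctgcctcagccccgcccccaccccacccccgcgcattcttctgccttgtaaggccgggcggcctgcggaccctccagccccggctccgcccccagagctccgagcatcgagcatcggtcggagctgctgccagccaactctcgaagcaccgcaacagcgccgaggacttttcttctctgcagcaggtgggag
Nid1, chr13:13437352-13437651, plus strand: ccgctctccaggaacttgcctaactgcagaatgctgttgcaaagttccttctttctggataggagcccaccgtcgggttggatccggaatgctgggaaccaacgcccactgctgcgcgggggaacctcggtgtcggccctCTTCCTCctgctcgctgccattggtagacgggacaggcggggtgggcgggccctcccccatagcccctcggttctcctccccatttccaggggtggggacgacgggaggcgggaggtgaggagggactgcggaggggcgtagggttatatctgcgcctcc

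The microglial identity genes were called in microglia for 18 of 18 members (19.8% of all genes tested), each over 10-fold (9.13%), with a median log2 difference of 11.93, or 11.54 with members at 0 set to their bound, against 0.08 for all genes tested. The list holds *Ptprc* and *Itgam*, the genes of the sort antibodies, whose calls the gate fixed. *Tmem119*, a surface protein of microglia, was at 10527, 10354 and 9924 in microglia and at 283, 0 and 109.9 in mural cells. Its mural values were spread widely, and its call was lost without Mi-346 and Mu-346 (adjusted p = 0.077, and 0.0003 to 0.077 over all alternatives). The smallest differences in the list were those of *Sall1*, the transcription factor that maintains microglial identity, at 3449, 4358 and 2840.0 against 402, 324 and 209 (11.4-fold), and *Olfml3*, a secreted matrix protein, at 9147, 10369 and 13933 against 635, 412 and 1411. Mural cells thus held reads of both, at levels well below the microglial ones.

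All 15 myeloid transcription factors tested were called in microglia, where 19.8% of all genes were. *Spi1*, which encodes PU.1, was at 14731, 13943 and 9841 with 2 mural reads, and *Ikzf1* (Ikaros) at 6413, 6507 and 5959 with 1. *Irf8*, which acts with PU.1 in the myeloid lineage, was at 14982, 15679 and 12532 against 399, 399.5 and 282, 40.0-fold higher (log2 difference 5.33 ± 0.20 SE, adjusted p = 6.3e-06). Other factors of the list were shared. *Mef2c* was at 29840.0, 25288 and 25467 in microglia and still at 10105, 10256 and 10693 in mural cells (2.6-fold), and *Mef2a* at 10104, 10264 and 11444 against 5714, 5186 and 7237 (1.75-fold). *Cebpb*, a factor induced in inflammation, was at 3530.0, 3746 and 505 against 162, 187 and 685. Its value in Mi-346 fell within the mural range, and the call (adjusted p = 0.044) was lost with the brains as pairs (adjusted p = 0.087) and without Mi-340, Mi-343, Mu-340 or Mu-343. Over all alternatives its adjusted p was 0.00096 to 0.15.

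Immune receptor signalling through ITAM adaptors was called in microglia for 20 of 20 members, against 19.8% of all genes tested. *Tyrobp*, the adaptor DAP12, was at 16917, 16779 and 18491 with 1 mural read, and its partner receptor *Trem2* at 13252, 13436 and 16408 with none, at least 5706-fold higher. *Fcer1g*, the Fc receptor gamma chain, was at 21801, 21394 and 27732 against 0, 4.57 and 10.3. *Fyb*, an adaptor of immune cells, reached 33573, 31612 and 32821 against 3.5, 6.85 and 5.63. The exchange factor *Dock2* (5769, 7716 and 8358) had no mural read. The Src-family kinase *Lyn* was the member nearest to shared, at 8545, 8175 and 8347 against 1994, 1547 and 2144 (4.41-fold).

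Of 15 complement genes tested, 11 were higher in microglia and 3 in mural cells, against 19.8% and 17.3% of all genes tested, so that the mural share was close to that of all genes. Besides C1q, microglia held the receptors *C3ar1* at 15243, 18458 and 21693 against 13.6, 119 and 61 and *C5ar1* at 1593, 1678 and 2886 against 9.61, 0 and 0, and the complement receptor chain *Itgb2* at 4819, 4704 and 6097 against 0. The 3 mural members were *Serping1*, the inhibitor of the C1 proteases, at 795, 248 and 818 against 0, 7.12 and 0, the protease gene *C1s1* at 197, 144 and 189 against 0, 52.2 and 0, and *Cd93*, a C1q receptor-related protein of vessels, at 318, 333 and 489 against 15.4, 106 and 65.5. The 7.12 of *Serping1* was 6 reads in Mi-343, and its adjusted p was 0.001. The call of *C1s1* was lost with edgeR, with DESeq2 and without any library but Mi-343 (adjusted p 0.0022 to 0.19 over all alternatives). That of *Cd93* was lost without Mu-346 (adjusted p = 0.059, and 0.0005 to 0.11 over all alternatives).

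Phagocytic and lipid genes were called in microglia for 14 of 20 members and in mural cells for 2, against 19.8% and 17.3% of all genes tested, with a median log2 difference of 3.57. *Apoe*, the lipid carrier, was at 223048, 208291 and 273405 in microglia and 4087, 3546 and 4147 in mural cells, 59.8-fold higher (log2 difference 5.90 ± 0.13 SE, adjusted p = 9.6e-07), and both populations held it in every library. Of the TAM receptors, *Mertk* was microglial, at 4053, 5138 and 9879 against 102, 324 and 305, whereas *Axl* was mural, at 4862, 3633 and 5749 against 1790.0, 1487 and 1606 (log2 difference -1.52 ± 0.21 SE, adjusted p = 0.0013), a call that was lost when the 12 bulk libraries were fitted together (adjusted p = 0.48, and 4.1e-09 to 0.48 over all alternatives). *Tyro3*, the third, was low in both, at 3.57, 1.19 and 0 in microglia and 75.6, 0 and 44.1 in mural cells, and was not called (adjusted p = 0.25), though it was without Mu-343 (0.018, and 0.018 to 0.68 over all alternatives). Of their ligands, *Gas6* was at 12434, 15824 and 13388 in microglia and at 0.874, 13.7 and 1.88 in mural cells, while *Pros1* was abundant in both, at 6622, 8226 and 8877 and 9512, 7123 and 11559, and was not called (adjusted p = 0.41). The other mural member was *Pltp*, the phospholipid transfer protein, at 1978, 2914 and 3703 against 389, 515 and 1181. *Spp1*, osteopontin, was at 10917, 10069 and 10603 in microglia against 842, 782 and 307 (16.4-fold).

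All 22 lysosomal genes were higher in microglia (19.8% of all genes tested), 11 of them over 10-fold (9.13%), with a median log2 difference of 3.32. Most were expressed in both populations and differed in level. *Ctsb*, cathepsin B, was at 183152, 197852 and 216031 against 6396, 6657 and 8420.0 (27.8-fold) and *Ctsd*, cathepsin D, at 81781, 94333 and 101048 against 1500.0, 1589 and 2830.0 (46.8-fold). *Lgmn*, the endopeptidase legumain, was at 137169, 134157 and 151624 against 4817, 3630.0 and 3637 (35-fold). *Laptm5*, a lysosomal membrane protein of blood cells, was nearly absent from mural cells, at 20.1, 1.14 and 58.2 against 45227, 45959 and 51846. At the low end, *Lamp2* differed by 1.92-fold and *Glb1* by 1.84-fold. The call of *Glb1* (adjusted p = 0.027) was lost without Mi-343, Mi-346, Mu-340 or Mu-346 (adjusted p 0.0049 to 0.15 over all alternatives).

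Chemokines and cytokines were called in microglia for 17 of 25 members tested and in mural cells for 4, against 19.8% and 17.3% of all genes tested. The neighbouring genes *Ccl3* and *Ccl4* on chromosome 11, 13.2 kb apart, encode chemokines that attract leukocytes. *Ccl4* was at 34194, 32058 and 48355 in microglia against 37.1, 28.5 and 0.939, and *Ccl3* at 16334, 16738 and 22326 against 395, 324 and 364, so that a low mural level was found for *Ccl3* in each library. The inflammatory cytokines *Il1a* (11006, 7986 and 8241 against 0, 7.99 and 0), *Il1b* (1088, 1434 and 1740.0 against 0) and *Tnf* (1067, 996 and 1182 against 0, 0 and 3.76) were microglial. *Ccl2* differed less, at 5872, 5475 and 9106 against 721, 1079 and 732 (8.08-fold). The mural members were *Cxcl12*, which retains and guides CXCR4+ cells, at 360.5, 388 and 639.6 against 14.3, 1.19 and 0, the neutrophil chemokine *Cxcl1* at a mean of 316 against 0, 8.3 and 45.3, *Tgfb2* and *Tgfb3*. *Cxcl1* lost its call without Mu-340 (adjusted p = 0.054, and 0.00084 to 0.054 over all alternatives). *Tgfb3* overlapped between the groups, at 312, 55.9 and 286 in mural cells and 7.13, 62.9 and 10.1 in microglia (adjusted p = 0.045), and lost its call with the brains as pairs (adjusted p = 0.094), with edgeR and without Mi-340, Mi-346, Mu-340 or Mu-346 (adjusted p 0.0088 to 0.26 over all alternatives).

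Of 15 Toll-like receptor genes and partners, 11 were higher in microglia and 1 in mural cells, against 19.8% and 17.3% of all genes tested. *Tlr2*, a receptor for bacterial lipoproteins, was at 2395, 2117 and 3198 and the RNA sensor *Tlr7* at 2149, 1765 and 2922, both at 0 in mural cells. *Cd14*, a co-receptor for lipopolysaccharide, was at 3272, 4893 and 8351 against 0, 0 and 91.1. The exception was *Tlr12*, a receptor for profilin of parasites, at 1910.0, 1653 and 3898 in mural cells and 193, 281 and 138 in microglia (log2 difference -3.55 ± 0.42 SE, adjusted p = 0.00066), 12.2-fold higher in mural cells.

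Of 25 antigen presentation and interferon genes, 13 were higher in microglia, 3 were higher in mural cells and 9 were not called. Of all genes tested 19.8% were higher in microglia and 17.3% in mural cells. The class II invariant chain *Cd74* was at 2654, 4766 and 3511 in microglia against 0, and *H2-Aa* at 541, 787 and 385 against 0. The class I genes *H2-K1* (2642, 3470.0 and 6293 against 43.3, 104 and 70.4) and *H2-D1* (6705, 6523 and 11605 against 76, 164 and 462) have close relatives in the genome that may share reads. The 3 mural members are genes that interferon induces: *Ifitm3*, which blocks entry of viruses, at 7074, 8004 and 9003 against 1571, 949.9 and 3050.0, *Ifitm2* at 3999, 6100.0 and 5378 against 582, 567 and 1065, and *Oasl2* at 9039, 5780.0 and 9577 against 168, 278 and 861 (adjusted p = 0.0009).

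Iron handling was higher in microglia for 9 of 15 members and in mural cells for 2, against 19.8% and 17.3% of all genes tested. The ferritin genes *Ftl1* (246899, 214014 and 177220.0 against 29663, 51515 and 41463) and *Fth1* (60280.0, 47254 and 44528 against 17060.0, 19027 and 13852) store iron, *Hmox1* (10629, 9086 and 8858 against 341, 314 and 274, 30.7-fold) releases it from heme, and *Slc40a1*, ferroportin, exports it (6650.0, 5514 and 5226 against 494, 131 and 1032). *Heph*, a ferroxidase that works with ferroportin, was mural, at 889, 276 and 479.9 with 1 microglial read. *Tfrc*, the transferrin receptor that takes iron up, was at 1924, 2567 and 1850.0 in mural cells and 897, 1154 and 1375 in microglia, a 1.85-fold difference (adjusted p = 0.022) that was lost without Mi-340, Mi-343 or Mu-343 (adjusted p 0.0018 to 0.066 over all alternatives).

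Immediate early genes, which cells switch on within minutes of a stimulus, were higher in microglia for 17 of 19 members. No member was higher in mural cells. Of all genes tested 19.8% were higher in microglia and 17.3% in mural cells. The median log2 difference of the list was 2.23, and *Fos* and *Jun* were abundant in both populations. *Fos* was at 125450.0, 129272 and 101542 in microglia and 37497, 45041 and 56343 in mural cells (2.56-fold), and *Jun* at 121659, 130919 and 83583 and 30241, 27629 and 50274 (3.11-fold). *Zfp36*, which destabilizes cytokine mRNA, differed most, at 73407, 59352 and 40844 against 1107, 896 and 2170.0 (41.6-fold), followed by *Atf3* at 56827, 57865 and 55693 against 1474, 1298 and 1588 (39.1-fold). *Klf2* (34313, 40032 and 14323) and *Junb* (81015, 71217 and 25430.0) were lowest, among microglia, in Mi-346, and in mural cells they were highest in Mu-346, at 1206, 1233 and 3091 and 4321, 2650.0 and 15264. The cells were dissociated and sorted before lysis, and the part of that handling in these levels was not tested.

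Pericyte identity genes were called in mural cells for 17 of 17 members tested (17.3% of all genes), 16 of them over 10-fold (7.73%), with a median log2 difference of -10.01, or -9.63 with members at 0 set to their bound. The list holds *Pdgfrb*, on which these cells were sorted and whose call the gate fixed. *Cspg4*, the NG2 proteoglycan, was at 8160.0, 8558 and 10410.0 against 2.38, 8.3 and 20.1, and *Ndufa4l2*, a mitochondrial protein of pericytes, at 26927, 27061 and 26986 against 8.32, 1.19 and 25.2. *Atp13a5*, a transporter of brain pericytes, was at 1379, 2792 and 3217 against 0, at least 678-fold higher. The member with the smallest difference was *Gm13889*, at 1212, 1277 and 1523 against 177, 237 and 121 (7.5-fold).

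Transcription factors of mural cells were called there for 19 of 24 members tested and in microglia for none, against 17.3% and 19.8% of all genes tested. *Ebf1*, which specifies pericyte precursors, was at 15631, 13969 and 16077 against 88, 104 and 69.2 (175-fold, adjusted p = 2.5e-06). *Foxs1* was at 2633, 2617 and 2950.0 against 4.75, 0 and 0, and *Tbx18*, a mural lineage marker, at 1463, 1928 and 1466 with 1 microglial read. Forkhead genes of forebrain pericytes followed, with *Foxf2* at 2934, 2758 and 3547 against 0, 16.6 and 0 and *Foxc1* at 1756, 1421 and 1873 against 11.9, 1.19 and 0. *Zic1* was at 3057, 3522 and 3418 against 64.2, 75.9 and 22.7 and *Zic4* at 1547, 2606 and 1826 against 80.8, 121 and 42.8. These 2 genes overlap on opposite strands of chromosome 9 and the library kit keeps no strand, so reads from the overlap cannot be told apart.

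The contractile apparatus was mural for 13 of 17 members tested, against 17.3% of all genes, but its members were far apart in level. *Cald1*, caldesmon, was at 98650.0, 98654 and 81359 against 278, 184 and 121 (478-fold), *Myl9* at 33861, 37119 and 35158 against 63, 121 and 34 (487-fold), and *Mylk*, the kinase of that light chain, at 14928, 14844 and 16182 against 5.94, 40.3 and 18.9. *Acta2*, smooth muscle actin, was much lower, at 455, 1065 and 933 against 8.32, 36.8 and 2.52. Genes of mature arterial smooth muscle had few reads. *Myh11* was at 239.9, 2.28 and 6.58 in mural cells and *Tagln* at 21, 41.1 and 71.4, and neither was called (adjusted p = 0.26 and 0.11). Per 1000 bases of exon, scaled to a sum of 1000000, the mural level of *Myl9* was 2971 ± 246 and that of *Acta2* 36.1 ± 13.7. *Srf*, the factor that binds CArG boxes, was the 1 member higher in microglia, at 1046, 995 and 1438 against 492, 228 and 279 (3.48-fold), and its call was lost without Mi-346 and Mu-346 (adjusted p = 0.069, and 5e-05 to 0.069 over all alternatives). Its cofactor *Mrtfb* was higher in mural cells, at 2000.0, 1946 and 1686 against 389, 564 and 677.

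Basement membrane genes were mural for 14 of 18 members and microglial for none, against 17.3% and 19.8% of all genes tested. The collagen IV chains *Col4a1* (17568, 16132 and 18163 against 9.51, 73.5 and 7.55) and *Col4a2* (13500.0, 12571 and 16110.0 against 15.4, 5.93 and 17.6) were higher in mural cells, *Col4a2* by 1081-fold. The chains *Lama4* (14934, 12250.0 and 18075 against 4.75, 79.5 and 12.6), *Lamb1* (14202, 13630.0 and 16803 against 23.8, 14.2 and 49.1) and *Lamc1* (11799, 11102 and 15043, 41.3-fold) form a laminin of vessel walls, and *Lamc3* (2045, 2568 and 3886 against 0) and *Lama2* (1457, 1028 and 1474 against 0) were also mural. *Agrn* was at 10164, 9897 and 10739 against 42.8, 156 and 147. *Sparc*, a matrix-binding glycoprotein, was at similar levels in both, at 22715, 27281 and 45887 in microglia and 29314, 33582 and 32090.0 in mural cells (log2 difference -0.05 ± 0.24, adjusted p = 0.89). Its value in Mi-346 was above all mural ones, and the sign of its difference turned without Mi-340 or Mi-343.

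Interstitial matrix genes were mural for 18 of 22 members tested (17.3% of all genes), each of the 18 over 10-fold (7.73%). *Col3a1* was at 5616, 5045 and 6849 against 3.57, 0 and 1.26, *Col1a2* at 3125, 3234 and 4049 against 17.8, 0 and 0 and *Col5a2* at 4478, 3975 and 4928 with 1 microglial read. The proteoglycan *Bgn*, biglycan, was at 19135, 15708 and 22234 against 17.8, 28.5 and 2.52. *Eln*, elastin of arterial walls, was low, at 34.5, 30.8 and 3.76 against 0. The 2 members higher in microglia were at low levels, *Fbln5* at 72.5, 17.8 and 17.6 with 1 mural read and *Lox* at 45.2, 212 and 98.2 against 12.7, 2.28 and 0. The call of *Fbln5* was lost with quantile normalization and with the 12 bulk libraries fitted together (adjusted p 0.00066 to 0.061 over all alternatives), and that of *Lox* with edgeR and without Mi-343 or Mi-346 (0.0023 to 0.092). That of *Eln* was lost with the brains as pairs (adjusted p = 0.054) and without any 1 microglial library (0.0028 to 0.08).

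Proteases that remodel this matrix, with inhibitors, other serpins and the urokinase receptor, were mural for 11 of 20 members tested and microglial for 5, against 17.3% and 19.8% of all genes tested. The gelatinase *Mmp9* was at 35235, 36160.0 and 62279 in mural cells and 20.2, 1.19 and 52.9 in microglia (adjusted p = 0.00021), its highest mural value in Mu-346. The stromelysin *Mmp11* was at 2941, 1935 and 4830.0 against 64.2, 26.1 and 36.5 and the membrane protease *Mmp14* at 2138, 1653 and 3578 against 182, 115 and 205. *Serpinh1*, the collagen chaperone HSP47, was at 112568, 90196 and 145168 against 311, 226 and 188, 479.6-fold higher (log2 difference -8.90 ± 0.25 SE, adjusted p = 1.9e-06). The inhibitor *Timp3* was mural, at 8237, 4053 and 8234 against 0, 0 and 35.2, and *Timp2* was microglial, at 3934, 4066 and 3243 against 818, 1214 and 752 (4.04-fold). *Serpine2* was abundant in both, at 15885, 19440.0 and 19632 and 14447, 19460.0 and 15486, and was not called.

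Receptors for vasoactive signals and regulators of G proteins divided by member. Of 23 tested, 8 were higher in microglia and 10 in mural cells, against 19.8% and 17.3% of all genes tested. Without Mi-346 and Mu-346 the mural count was 6, where 2375 of all 18370 genes tested were higher in mural cells. *S1pr3*, a sphingosine 1-phosphate receptor of vessel walls, was at 12547, 8786 and 21834 in mural cells against 5.94, 113 and 0, while *S1pr1*, another receptor for that lipid, was microglial at 2408, 2787 and 4032 against 377, 63.9 and 406 (10.9-fold). The partner subunits *Gucy1a1* and *Gucy1b1* lie 17.7 kb apart on chromosome 3, and *Gucy1b1* was at 18609, 14419 and 15693 against 2.38, 0 and 45.3. The RGS genes, which end G-protein signals, were called on both sides. *Rgs4* and *Rgs5* lie 45.7 kb apart on chromosome 1 and were both mural, *Rgs4* at 56092, 52092 and 56393 against 14.3, 130.4 and 0. *Rgs1* (7053, 6025 and 8236 against 0), *Rgs2* (11806, 12079 and 13118 against 802, 761 and 602), *Rgs10* (9232, 8259 and 6696 against 317, 792 and 813) and *Rgs18* (165, 148 and 238 against 0) were microglial. The angiotensin receptor gene *Agtr2* and the adrenergic receptor gene *Adra1d* had no read at this depth.

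Integrins, the receptors for matrix, were higher in microglia for 6 of 18 members and in mural cells for 7, against 19.8% and 17.3% of all genes tested. *Itga1* was mural, as described, and *Itga4*, a chain that binds fibronectin and VCAM1, was at 7352, 6967 and 8896 against 994, 715 and 1567 (7.09-fold). The shared beta chain *Itgb1* was at 15559, 14904 and 20239 against 8425, 8194 and 10263 (1.89-fold). *Itgal*, the LFA-1 chain of leukocytes, was microglial at 1724, 1849 and 2683 against 6.55, 1.14 and 0, and *Itgb5* was at 9799, 11261 and 11983 against 3514, 2422 and 3474 (3.51-fold).

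**Figure D3:**
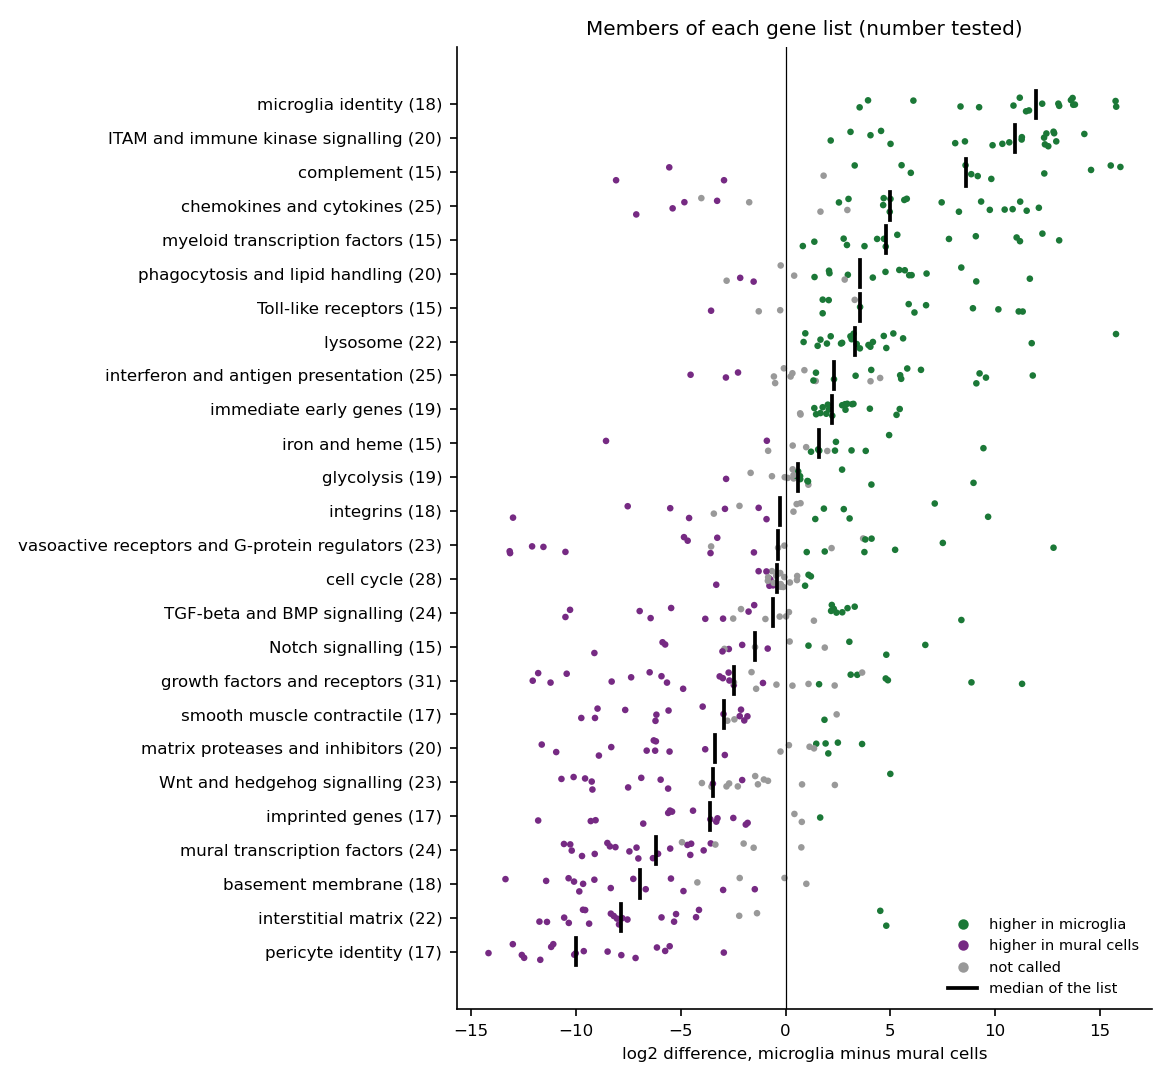
Each point is 1 member of a gene list, placed by its log2 difference, microglia minus mural cells, with green for members called in microglia, purple for members called in mural cells and grey for members not called; black bars are list medians, and lists are ordered by them. Lists of macrophage function lie at the top, matrix and pericyte lists at the bottom, and the lists of cell cycle and glycolysis have medians of -0.41 and 0.60.

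Growth factors and their receptors were higher in mural cells for 16 of 31 members tested and in microglia for 7, against 17.3% and 19.8% of all genes tested. *Igf2* was at 2623, 3375 and 5076 in mural cells with no microglial read, at least 1016-fold higher, and its clearance receptor *Igf2r* was also mural, at 6808, 5913 and 6733 against 112, 83 and 39 (83.2-fold). *Igf1* was microglial, at 2642, 2870.0 and 2076 against 0, 0 and 154 (adjusted p = 0.0084), its mural reads all in Mu-346, and its call was lost with DESeq2 (adjusted p = 0.098, and 7e-05 to 0.098 over all alternatives). The heparin-binding factors *Ptn*, pleiotrophin (18458, 20869 and 20921 against 529, 578 and 204), and *Mdk*, midkine (5311, 6209 and 4600.0 against 719, 1022 and 783), were mural, as were the syndecans *Sdc2* (8823, 5707 and 9248 against 0, 0 and 5.04) and *Sdc3* (1196, 921 and 1414 against 119, 130.4 and 349). *Csf1*, the ligand of the CSF1 receptor, was microglial, at 4921, 5826 and 5095 against 244, 195 and 146 (27.1-fold). *Angpt1* (1347, 1058 and 1579 against 0, 0 and 71.8) and its receptor *Tek* (1610.0, 1495 and 2452 with 1 microglial read) were both mural.

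Of 24 TGF-beta and BMP genes tested, 8 were higher in microglia and 9 in mural cells, against 19.8% and 17.3% of all genes tested. The type I receptor *Tgfbr1* was at 22109, 22313 and 20186 in microglia against 2691, 2178 and 1786 (9.71-fold), the type II receptor *Tgfbr2* at 3730.0, 3293 and 3807 against 824, 474 and 1002 (4.71-fold), and the inhibitors *Smad7* (1751, 1508 and 1506 against 107, 402 and 195) and *Skil* (12969, 12492 and 15150.0 against 2231, 2238 and 1772) were likewise microglial. Among the mural members, the BMP receptor *Bmpr2* was at 5262, 3813 and 4611 against 1414, 1608 and 1809, the ligand *Bmp5* at 1462, 1010.0 and 1290.0 against 0, and the BMP targets *Id1* (2917, 3579 and 3235 against 299.5, 406 and 560.2) and *Id3* (9691, 10607 and 11028 against 630.0, 444 and 1406) were higher in mural cells. *Id2* went the other way, at 4707, 4248 and 4435 in microglia against 781, 1148 and 633 (5.22-fold). Of the proteins that hold latent TGF-beta on the cell surface, *Nrros* was at 8319, 9494 and 11706 in microglia against 34.1, 5.71 and 104, and *Lrrc32* (GARP) at 1487, 1129 and 1812 in mural cells against 0.

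Notch genes were higher in mural cells for 7 of 15 members and in microglia for 4, where 17.3% and 19.8% of all genes tested were. *Notch3*, the receptor of mural cells, was at 1903, 1558 and 2595 against 28.5, 28.5 and 56.6, its ligand *Jag1* at 4848, 3110.0 and 5243 against 15.4, 94.9 and 250.5, and the target *Hey2* at 2191, 2766 and 2543 against 0, 7.12 and 10.1. *Heyl*, another target, from the list of mural factors, was at 9133, 8483 and 13444 against 1.19, 93.7 and 7.55. Microglia were higher for *Lfng*, which glycosylates Notch, at 416, 634 and 653 against 33.6, 106 and 82.7. Without Mi-346 and Mu-346 the mural count was 4 of 15, where 2375 of all 18370 genes tested were higher in mural cells.

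Wnt and hedgehog genes were higher in mural cells for 11 of 23 members tested, against 17.3% of all genes. *Wnt5a* was at 596, 1042 and 694 and its receptors *Ror1* at 727, 373 and 820.0 and *Ror2* at 115, 186 and 278, with no microglial read for any of them. The inhibitors *Sfrp2* (2203, 1380.0 and 2660.0 against 0, 0 and 37.8) and *Dkk2* (2693, 1367 and 2233 against 1.19, 49.8 and 44.1) and the Wnt target *Axin2* (1284, 1656 and 1673 against 9.51, 58.1 and 49.1, 39.5-fold) were mural too. The 1 microglial member was *Rspo1*, which amplifies Wnt signals, at 306, 183 and 222 against 0, 11.4 and 30.1. Its call (adjusted p = 0.018) was lost with edgeR and without any 1 microglial library (adjusted p 0.0024 to 0.067 over all alternatives).

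A set of 50 known ligand and receptor pairs was read for whether the ligand was called in one population and the receptor in the other. This was so for 15 of 50, of which 7 had the ligand in microglia and 8 in mural cells. For 8 of the 15 both fitted log2 differences were over 3.32 in size, which counts *Pdgfb* (3.42), whose ratio of means was below 10. In another 10 pairs both genes were higher in microglia, in 9 both were higher in mural cells, and 16 pairs had a gene that was not called. The pairs were chosen with the populations in mind, and single genes were called at 19.8% and 17.3%.

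Of the pairs with the ligand in mural cells, *Il34* and *Csf1r* both differed by over 10-fold. *Il34*, the other ligand of the CSF1 receptor, was at 606, 615 and 936 in mural cells and 0, 4.74 and 12.6 in microglia, and *Csf1r* was at 49197, 58040.0 and 61790.0 in microglia and 74.3, 108 and 97.7 in mural cells (603-fold). *Csf1* was higher in microglia, as given above, so the 2 ligands of 1 receptor were divided between the populations. The surface protein *Cd200*, at 5632, 5288 and 4766 in mural cells against 63, 90.1 and 133, faced its inhibitory receptor *Cd200r1*, at 384, 281 and 327 in microglia against 0, 27.4 and 0. The call of *Cd200r1* was lost with edgeR (adjusted p = 0.055) and without Mi-346 and Mu-346 (0.075, and 0.00045 to 0.075 over all alternatives). *Bgn* faced *Tlr2*, and *Tgfb2*, at 326, 988 and 774 against 8.32, 17.8 and 61.7, faced *Tgfbr2*. *Fn1*, fibronectin, at 6054, 7242 and 7849 against a mean of 363, faced *Itga5*, at 2195, 2974 and 5430.0 against 663, 229 and 720.4. *Mdk* faced the scavenger receptor *Lrp1*, at 9256, 9981 and 9787 against 1912, 1955 and 3110.0, and *App*, the amyloid precursor, at 5627, 5677 and 6465 against 1225, 1555 and 1780.0, faced *Cd74*. *Vtn* faced *Itgb3*, a chain of its receptor, at 479, 861 and 570.3 against 118, 243 and 13.2, but *Itgb3* was called at an adjusted p of 0.047 and lost its call with edgeR and without Mu-340 or any 1 microglial library (0.017 to 0.15 over all alternatives). *Itgav*, the other integrin chain paired with *Vtn* in the set, was higher in mural cells (log2 difference -1.28).

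Of the pairs with the ligand in microglia, *Pdgfb* was at 786, 905 and 1357 in microglia against 187, 30.8 and 132 (8.73-fold), facing *Pdgfrb*, on which the mural cells were sorted. *Pdgfb* lost its call without Mi-346 and Mu-346 (adjusted p = 0.062, and 6.1e-06 to 0.062 over all alternatives). *Osm*, oncostatin M, at 637, 999.7 and 979.5 in microglia and 0 in mural cells, faced *Osmr*, at 1146, 1208 and 2095 in mural cells against 2.38, 0 and 0. *Il1b* faced *Il1r1*, the signalling receptor of IL-1, at 1639, 2451 and 2110.0 against 61.8, 19 and 70.5 (log2 difference -5.51 ± 0.53 SE, adjusted p = 0.00028). *Npnt*, nephronectin, at 1770.0, 2832 and 3052 against 0, 0 and 78, faced its integrin chain *Itga8*, at 592, 84.5 and 271 with 1 microglial read. *Gas6* faced *Axl*, and *Spp1* faced *Itgav*, at 6399, 6100.0 and 7680.0 against a microglial mean of 2791 (2.41-fold). *Edn1*, endothelin 1, was at 198, 221 and 220.3 in microglia against 0, 47.9 and 2.82 and faced *Ednra*, and its call (adjusted p = 0.021) was lost with edgeR and without Mu-346 or any 1 microglial library (0.0024 to 0.15 over all alternatives). RNA of both ends of a pair does not show that the proteins meet.

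**Figure D4:**
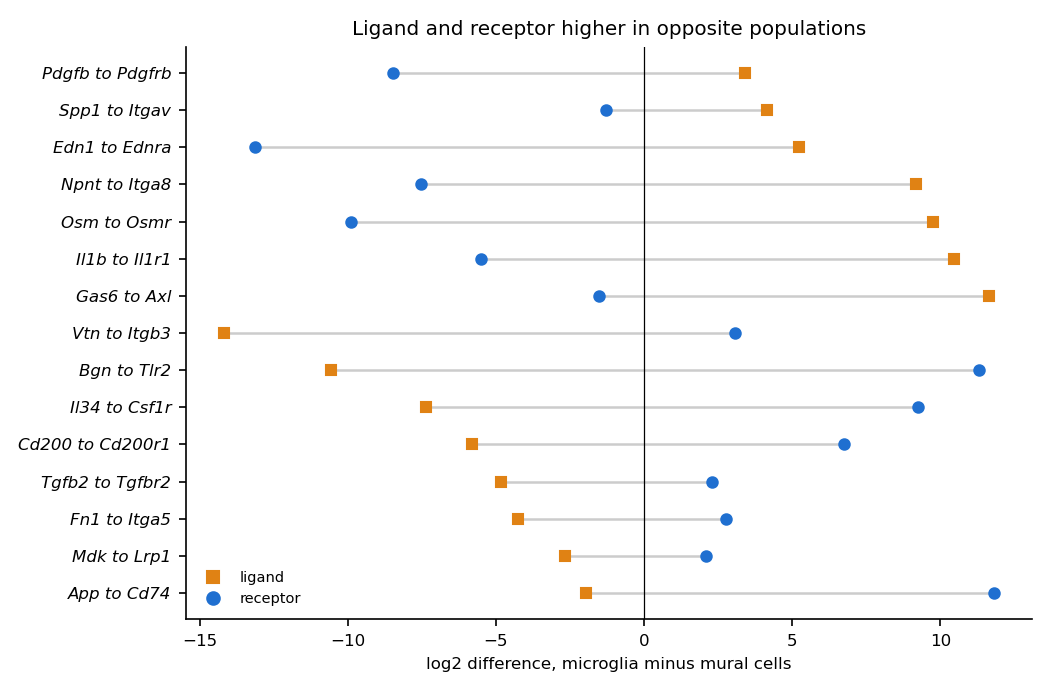
The 15 pairs whose ligand (orange square) and receptor (blue circle) were called in opposite populations, placed by log2 difference, microglia minus mural cells. In the upper 7 pairs the ligand lies to the right, higher in microglia, and in the lower 8 it lies to the left, higher in mural cells; positions of genes at 0 in one population depend on the pseudocount.

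Cell cycle genes differed by small amounts, none of them by over 10-fold, with a median log2 difference of -0.41. Of 28 members, 3 were higher in microglia and 8 in mural cells, against 19.8% and 17.3% of all genes tested. *Mki67*, a marker of cycling cells, was at 5159, 7323 and 9734 in microglia and 11699, 9136 and 7107 in mural cells (adjusted p = 0.35), and was abundant in both populations. *Ccnd2*, cyclin D2, was the exception in size, at 43962, 48786 and 32570.0 in mural cells against 6423, 3686 and 3043 (9.53-fold, adjusted p = 0.00017). The helicase genes *Mcm3* (7604, 7758 and 6626 against 4736, 2898 and 2917) and *Mcm5* (4768, 4485 and 4409 against 2490.0, 1639 and 1876), which act at replication origins, were 2.08-fold and 2.27-fold higher in microglia, and the call of *Mcm3* was lost without Mi-346 and Mu-346 (adjusted p = 0.053, and 0.0012 to 0.053 over all alternatives). The mitotic genes *Cdc20* (5410.0, 3987 and 4008 against 2272, 1322 and 1984) and *Ccnb2* (6338, 5671 and 5506 against 4091, 3247 and 3321) were higher in mural cells. The mural count fell to 4 without Mi-343 and to 5 without Mu-340. Over all genes tested it was then 2521 of 18915 and 2553 of 18847, against 3260 of 18886 with all libraries.

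Glycolysis genes were higher in microglia for 10 of 19 members tested and in mural cells for 1, against 19.8% and 17.3% of all genes tested, with a median log2 difference of 0.60. The hexokinase *Hk2* was at 5389, 4006 and 4058 against 315, 169 and 327 and *Hk3*, the hexokinase of myeloid cells, at 4235, 3579 and 2995 against 1.75, 5.71 and 18.8. The glucose transporter *Slc2a3* was the mural member, at 2556, 2366 and 3304 against 417, 357 and 365 (7.22-fold), and *Slc2a5*, a fructose transporter from the list of microglial identity, was at 4746, 3756 and 4379 against 10.9, 0 and 0.

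Imprinted genes, many of which promote or restrain fetal growth, were higher in mural cells for 14 of 17 members tested and in microglia for 1, against 17.3% and 19.8% of all genes tested. *Meg3* was at 24212, 26327 and 28985 against 537, 589 and 607 (45.9-fold), *H19* at 3853, 3091 and 4166 against 58.2, 108 and 98.2 (42-fold) and *Mest* at 18336, 13182 and 17361 against 118, 128 and 201 (109-fold). *Dlk1*, from the locus of *Meg3*, was at 7655, 7424 and 10101 against 57.1, 39.1 and 0, and the adaptor *Grb10* at 23444, 15788 and 30918 against 636, 608 and 258. *Cdkn1c*, a cell cycle inhibitor, was at 4578, 4946 and 4903 against 603, 409 and 257. The exception was the long noncoding RNA *Kcnq1ot1*, at 8959, 13073 and 29398 in microglia against 4760.0, 5119 and 4559, which overlaps *Kcnq1* on the other strand.

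The most abundant transcripts per length, in counts per 1000 bases of exon scaled to a sum of 1000000, were partly common to both. Mitochondrial genes aside, *Tmsb4x* (thymosin beta 4, an actin-binding peptide) stood at 15762 ± 618 (SD, n = 3) in microglia and 6163 ± 272 in mural cells, and *Actb* (beta actin) at 11601 ± 2548 and 8979 ± 410. In microglia *Ftl1* (11496 ± 410.0), *Apoe* (8157 ± 2210.0), *Lgmn* (4484 ± 885), *C1qb* (4355 ± 865), *Ccl4* (4327 ± 1561) and the noncoding RNA *Malat1* (3758 ± 2422) followed. In mural cells *Rgs5* (12097 ± 1498) was above *Actb*, and *Tmsb10* (5864 ± 225), *Serpinh1* (4717 ± 1588) and the histone gene *H3f3b* (3460 ± 93.5) followed. The microglial levels of *Lgmn*, *C1qb* and *Ccl4* lay within each other's spread. The entries *Gm23935* and *CT010467.1*, annotated as a miRNA and an rRNA, were among the 3 highest in both populations and the pseudogenes *Gm10736* and *Gm3788* among the 10 highest in mural cells. Such short or repeated genes can take reads of near-identical copies, and they are given as uncertain.

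Markers of other cells the gates could hold were read in every library. Endothelial markers summed to 14925, 11719 and 16193 over 12 genes in mural cells and to 1726, 1386 and 1489 in microglia, without overlap (exact permutation p = 0.1, the smallest possible). The mural sum came mainly from *Emcn* (5508, 4466 and 4967), *Esam* (4459, 3017 and 5404), *Tek*, *Flt1* (1296, 1124 and 1206) and *Egfl7* (994, 1257 and 1161). *Tek* had a mean of 1853 in mural cells and 9268 in the endothelial libraries. The endothelial genes *Cldn5* (mean 90.9), *Pecam1* (65.5, 50.2 and 38.5) and *Sox17* (152, 1.14 and 43.2) were low beside means of 57858, 20401 and 7467 in the endothelial libraries. Mural cells were gated without PECAM1, so their low *Pecam1* followed the gate and is no finding. *Pecam1* was at 1027, 457 and 835 in microglia, which were also gated without PECAM1. Neural markers summed to 37203, 47139 and 25357 in mural cells and 11749, 11708 and 9246 in microglia. The largest member was *Fabp7*, the lipid-binding protein of radial glia, at 27589, 34842 and 18397 in mural cells, 1991, 1659 and 1144 in microglia and 7006, 7758 and 8042 in the neural libraries. Without *Fabp7* the sums were 9614, 12297 and 6961 in mural cells and 9758, 10049 and 8101 in microglia (exact permutation p = 1). Fibroblast markers summed to 735, 1171 and 781 in mural cells and 590, 362 and 213 in microglia (exact permutation p = 0.1). *Dcn* was at 62, 156 and 92 and *Lum* at 138, 0 and 5.63 in mural cells, both at 0 in microglia. *Pdgfra* had 1 mural read. Per length, the member *Ogn* stood higher, at 22.5 ± 5.45 in mural cells and 3.48 ± 2.48 in microglia. *Crabp2* had its higher mean in microglia, at 10.45 ± 2.69 against 5.67 ± 2.89 in mural cells.

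In microglia, markers of border macrophages summed to 47758, 43183 and 50480 over 10 genes, against 1401, 832 and 697 in mural cells. *Mrc1* (10241, 7987 and 10492), *Stab1* (12568, 16026 and 20863), *Dab2* (15849, 11341 and 9052) and *F13a1* (6158, 5938 and 7321) carried this sum, while *Cd163*, a defining scavenger receptor, was at 0, 61.7 and 0 and *Pf4* was at 975, 688 and 485. Markers of monocytes and neutrophils summed to 3783, 3166 and 10453 in microglia and to 16.6, 47.9 and 85.5 in mural cells. Mi-346 held the most of *Ccr2* (1113, 1067 and 4333), the monocyte chemokine receptor, and of *Plac8* (668, 385 and 2731). Haemoglobin and other erythroid genes summed to 2229, 1986 and 1713 in microglia and 257, 598 and 253 in mural cells, and megakaryocyte and platelet genes to 378, 540 and 453 in microglia and 468, 242 and 202 in mural cells (exact permutation p = 0.3). The part of such cells in the differences above was not tested. Without Mi-346 and Mu-346 the counts of genes over 10-fold higher were 1275 in microglia and 1209 in mural cells.

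**Figure D5:**
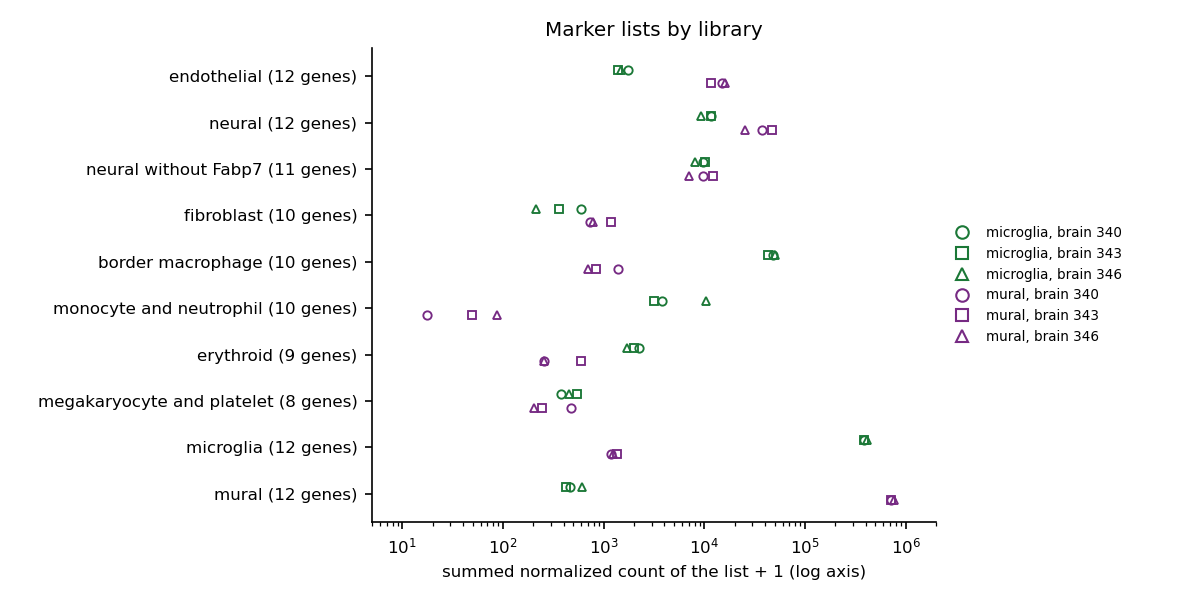
Summed normalized count + 1 of each marker list on a log axis, in each of the 6 libraries, with microglia in green, mural cells in purple and the symbol giving the brain. Own markers exceed those of the other population by more than 100-fold, the border macrophage sum lies at 43183 to 50480 in microglia, and the neural sums overlap once *Fabp7* is left out.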

How the data were processed

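Bulk RNA-seq libraries of sorted microglia and mural cells from 3 brains were analysed, 6 of the 12 bulk libraries. The deposited values are a signal, reads per gene divided by the authors with 1 size factor per library. The submitters' processing notes name BWA 0.6.2-r126, STAR, featureCounts, DESeq2 and mm10, and which of them made this table is not given in the sources used here. Whole reads were recovered from the steps of low values: of 59974 values up to 100 reads, 100% were whole within 0.01. Depth was 24464777 to 63107352 reads on genes per library.

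Genes with a mean of at least 10 in the 6 libraries were tested with limma 3.58.1 (R 4.3.3, trended variance) on log2(normalized count + 1), and p-values were adjusted over 18886 genes by Benjamini-Hochberg. Fold changes printed for single genes are ratios of means, and genes counted as over 10-fold are those with a fitted log2 difference over 3.32 in size. Log2 differences are means of log2(normalized count + 1): the pseudocount makes those of low genes smaller, and they can exceed the log2 of the ratio of means where libraries are uneven. edgeR 4.0.16 and DESeq2 1.42.0 ran on the recovered reads as alternatives, with a replicate block for the brain, other pseudocounts (0.5 and 10), other filters, quantile normalization, all 12 bulk libraries and each library left out. Leaving out Mi-346 and Mu-346 together was chosen after seeing the data. On simulated counts for these libraries limma called 7 of 50 genes changed 2-fold, 44 of 50 changed 4-fold and 50 of 50 changed 16-fold, with 8 calls among 18686 unchanged genes.

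By the labels, a brain number names 1 brain in both populations. The sex-linked genes of the 2 libraries of each number went together, which cannot tell brains of the same sex apart. The residuals of same-numbered libraries correlated at 0.0042, 0.0015 and 0.0760. Those of differently numbered libraries ranged from -0.069 (Mi-340 with Mu-346) to 0.055 (Mi-340 with Mu-343), so the residuals do not settle the pairing.

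Gene lists and pairs were chosen with earlier results of these data known. From each list, members with a large difference or against the direction of most of the list were named, but not every member with a larger difference than a named one was given. Also named were the 10 leading genes per direction (over 10-fold, no overlap, mean of at least 100), the 10 most abundant per length (mitochondrial genes left out) and the 5 per direction most uneven between brains. Further members, such as those with the smallest difference in a list or at like levels in both populations, were named after their values were seen. Lengths are exon unions of GENCODE vM21, in which 53360 (99.8%) of 53465 gene IDs were found. The symbols Ahsp, Aldoa and Lrrc33 in the lists could not be matched to a single gene. The kit keeps no strand, so overlapping genes cannot be told apart. Promoters are from RefSeq on GRCm38.p6. The values of some list members are not reported here.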

Additional observations from a re-analysis of the deposited data

How the results depend on the processing

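The counts called in each direction over all genes tested stayed within 1.5 times of their values under each alternative run, apart from counts that use 10-fold. With a pseudocount of 10 the genes over 10-fold higher numbered 1024 in microglia and 952 in mural cells, and with a minimum mean of 100, where fewer genes were tested, 984 and 920. Of the 15 facing pairs, 8 had a fitted log2 difference over 3.32 in size at both ends. With each library left out in turn, the cell cycle genes higher in mural cells numbered 4 to 8. Over all genes tested the mural count in these runs was 2521 to 2958. Without Mi-346 and Mu-346, which was chosen after seeing the data, vasoactive and G-protein genes higher in mural cells numbered 6 and Notch genes 4. Over all genes tested in that run, 2375 of 18370 were higher in mural cells, against 3260 of 18886 in the main run. The cause was not tested. That run also ended the calls of *C1s1*, *Cd93*, *Edn1*, *Fbln5*, *Glb1*, *Itgb3*, *Lox*, *Tgfb3*, *Gm44860*, *Oas2* and *Slc2a6*. With the brain as a replicate block, 3438 genes were higher in microglia and 2930 in mural cells, and 242 named genes kept their direction and their side of the threshold, 6 lost a call and 2 gained one. The block ended the calls of *Cebpb*, *Eln* and *Tgfb3*, given above, and of *Gm37940*, *Plekhb1* and *Slc2a6*, given under the other observations. Quantile normalization moved the median log2 difference of all genes from 0.08 to -0.04 and the share of microglia among called genes from 53.4% to 49.3%. It turned the log2 difference of *Serpine2* to -0.088 and that of *CT010467.1* to -0.056, neither called. *Sparc*, not called, ranged from -0.34 to 0.16 with each library left out. With lengths of the longest transcript in place of the exon union, 9 of the 10 most abundant genes per length of microglia and 8 of the 10 of mural cells were shared with the lists given. In the simulation most 2-fold changes were missed, but few genes were changed there, while 6996 were called in the data. *Mef2a* was called here at 1.75-fold. The share missed in the simulation therefore does not give the share missed in this comparison.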

Other observations

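Some called genes differed far more in one brain than in another. The 5 called genes per direction whose within-brain differences had the largest standard deviation over the 3 brains are given here by their values. *Lcp1*, an actin-bundling protein of leukocytes, was even in microglia at 39164, 37800.0 and 35173 but at 123, 486 and 0 in mural cells. *Pcdh18*, a protocadherin, was even in mural cells at 29583, 21344 and 32630.0 but at 202, 0 and 0 in microglia, so that its microglial reads came from 1 brain. *S1pr3* and *Igf1*, given above, belong to the same group. Of the other microglial genes, *Gm44860* was at 288, 765 and 1304 against 97.4, 1.14 and 0, *Slc2a6* at 106, 332 and 336 against 78.2, 0 and 0 and *Oas2* at 164, 181 and 624 against 90.5, 0 and 0. Each of these 3 was also uneven in microglia. Of the other mural genes, *Gm37940* was at 191, 124 and 48.8 against 0, 0 and 46.6, *Plekhb1* at 149.9, 329 and 62 against 0, 0 and 34 and *Cyp39a1* at 2465, 1617 and 1937 against 0, 59.3 and 123, the first 2 uneven in mural cells as well. Each of these 6 lost its call under 1 or more alternatives, *Cyp39a1* without Mu-340 and without Mi-346 and Mu-346 together. Over all 6996 called genes the standard deviation of the within-brain differences had a median of 0.65 on the log2 scale, against 0.78 over all genes tested. A call favours genes with a small spread between libraries, so these 2 medians cannot show how even the called genes were.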
